A study of Homo sapiens with 4 samples.

Results

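The regions described here are the peaks of chromosome 11 called in 4 ChIP-seq libraries of OECM1, an established cell line from head and neck cancer. A peak was taken where its middle lay on the short arm, 11p, between 3 and 48.6 Mb, or on the long arm, 11q, between 57.6 and 132 Mb, in build GRCh37. These limits leave out the chromosome ends and the surroundings of the centromere. They kept 334 of the 11483 peaks of the series, of which 125 came from the ARID3B antibody in control cells, 128 from ARID3B in edited cells, 36 from KDM4C in control cells and 45 from KDM4C in edited cells. The 69 to 70.5 Mb interval of 11q is called the CCND1 region.

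The control cells carried Cas9 with a control construct, and the edited cells carried Cas9 directed at ARID3B. Cells of both kinds were grown in the same serum-containing medium. Because the titles of the samples name a knockdown and that of the series a knockout, the cells are called edited. Each of the 4 combinations of antibody and cells had 1 library and no input library, so differences were not checked by replicates, and all intervals are exact 95% intervals for counting error only.

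ARID3B binds DNA through an AT-rich interaction domain. KDM4C removes methyl groups from lysines of histones. CCND1 encodes cyclin D1, which drives cells into DNA synthesis, and the band that carries it is amplified in many head and neck squamous cancers. In the order of the RefSeq annotation of GRCh38.p14, the genes of this band run MYEOV, CCND1, LTO1, FGF19, FGF4, FGF3, ANO1, FADD, PPFIA1, CTTN and SHANK2. FGF19, FGF4 and FGF3 are fibroblast growth factors, ANO1 is a chloride channel, FADD is an adaptor of death receptors, and CTTN is the actin-binding protein cortactin. No annotation of the files' build was used here, so no peak below is assigned to a gene, exon, intron or promoter.

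After filtering, ARID3B had 24439463 tags in control and 20878112 in edited cells, and KDM4C had 20668533 and 16209985. Wherever 4 values follow each other below, they keep this order. The smallest peaks of the arms had 9 or 10 tags, and between 55.2% and 72.2% of the arm peaks of a library scored under 60, where the calling threshold is a score of 50 (p of 1e-05). The local background of a peak is the tag density that the caller expected there, recovered from the tag count and score and given as a multiple of the genome mean. It cannot fall below about 1.0, because the caller takes no density under the genome mean. Fold enrichment is the height of the peak's summit over that local background. A peak list does not show how much ARID3B the edited cells still had.

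All 29 peaks of the CCND1 region stood on a raised local background, in every library. Its median was 5.13 times the genome mean in the ARID3B control library (7 peaks, 3.79 to 7.94), 5.33 in ARID3B edited (14 peaks, 3.69 to 9.54), 3.40 in KDM4C control (3 peaks, 3.37 to 5.39) and 5.11 in KDM4C edited (5 peaks, 3.40 to 5.96). On the remainder of 11q the medians were 1.22, 1.0, 1.29 and 1.08. A background of at least 3 was thus met by 100% of the region's peaks, and by 10.4%, 5.80%, 22.2% and 3.85% of the other 11q peaks. On the arms of the other autosomes, taken with the same margins, it was met by 3.35%, 3.53%, 6.36% and 5.34%. The caller's 10 kb background window can hold the peak itself. Each peak's own tags and length were also removed, as an alternative added once the data had been seen. The medians in the region were then 4.66, 4.76, 3.01 and 4.74, and the lowest single value was 2.65.

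The edges of the raised stretch differed on its 2 sides. Past 70.5 Mb the nearest later peak of each library stood near the genome mean. It started at 71460732 (background 1.0) in ARID3B control, 71678003 (1.0) in ARID3B edited, 77597364 (1.10) in KDM4C control and 71912661 (1.15) in KDM4C edited. Between 70.5 and 73.5 Mb the ARID3B control library had 4 peaks with a median of 1.04, and the ARID3B edited library had 4 peaks with a median of 1.0. On the side toward the centromere the background stayed above the mean over several megabases. Between 66 and 69 Mb it was 2.09 to 2.96 at 8 ARID3B control peaks, 1.49 and 2.21 at 2 ARID3B edited peaks, and 1.52 at the single KDM4C edited peak. Between 64 and 66 Mb the medians were 2.93 in ARID3B control (4 peaks), 2.39 in ARID3B edited (4 peaks) and 3.49 in KDM4C control (3 peaks), and KDM4C edited had no peak there. From the 11q limit to 64 Mb they were 1.28, 1.20, 1.16 and 1.17.

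**Figure D1:**
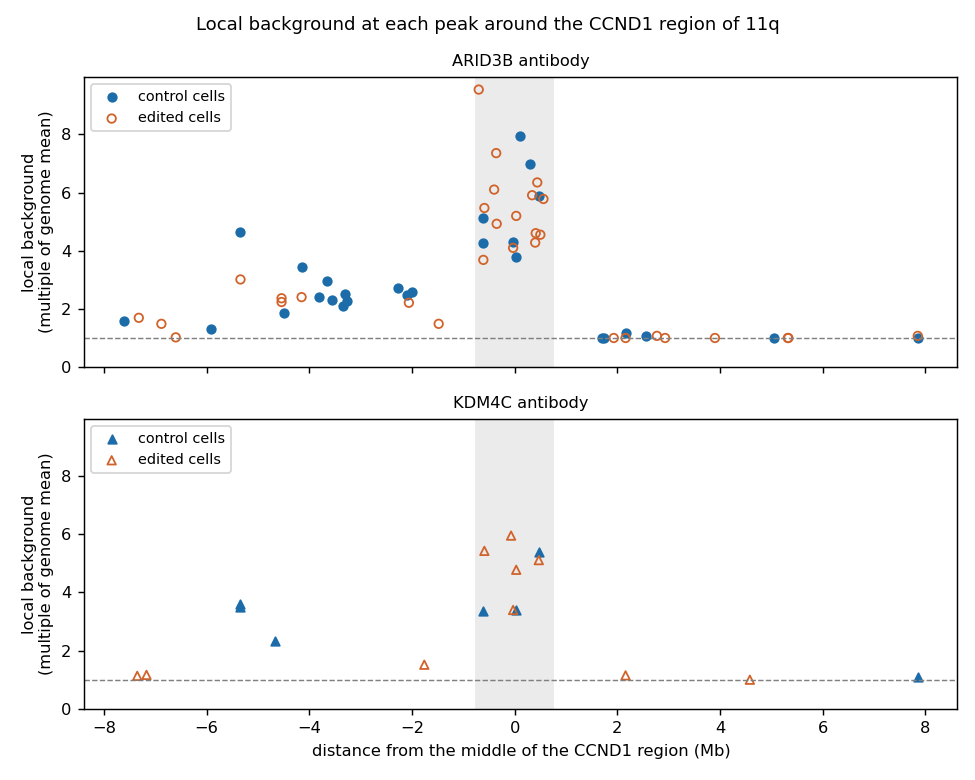
Local background of each peak (vertical axis, multiple of the genome mean) against the distance of its middle from the middle of the CCND1 region (horizontal axis, Mb), for the ARID3B antibody above and KDM4C below. Each point is 1 peak, filled for control and open for edited cells, the shaded band is the CCND1 region and the dashed line is the genome mean. All 29 peaks in the band lie between 3.37 and 9.54, and of the other peaks plotted, out to 8 Mb from the middle, those on the left lie between about the mean and 4.66 and those on the right near 1.

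Peaks of the CCND1 region were long, rich in tags and low in fold enrichment. Their median length was 1428, 1166.5, 932 and 765 bp, against 332.5, 235, 242.5 and 267 bp on the remainder of 11q. They held 69 to 184, 46 to 327, 40 to 60 and 36 to 127 tags, where the median peak of the remainder held 15, 11, 11 and 10 tags. Their fold enrichment was 2.91 to 6.13, 2.84 to 5.36, 4.25 to 4.69 and 2.92 to 6.19, while the remainder of 11q had medians of 8.13, 10.4, 9.94 and 10.5. High tag counts went here with long peaks and dense surroundings, at a low fold enrichment. Such peaks were not confined to the region. From 64 to 66 Mb, also on raised background, the ARID3B control peaks had 394 to 1764 bp, 23 to 148 tags and folds of 4.11 to 7.57. The ARID3B edited peaks there had 374 to 636 bp, 22 to 34 tags and folds of 4.76 to 7.61.

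**Figure D2:**
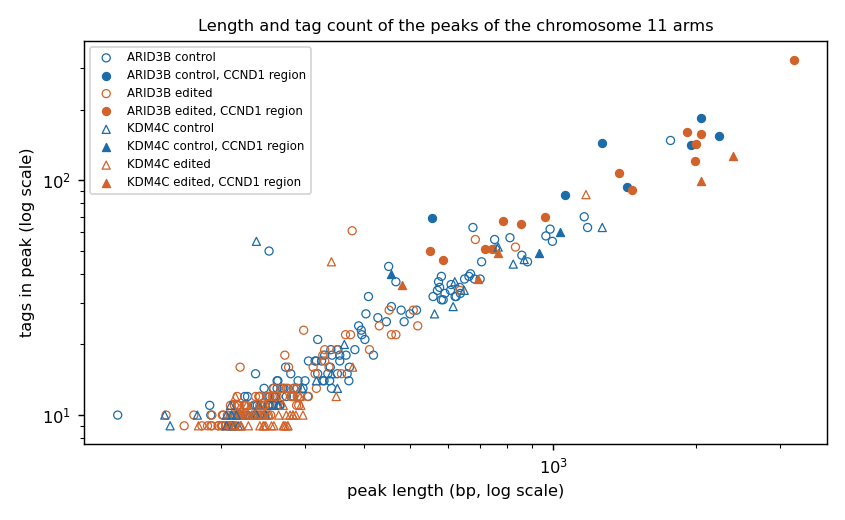
Tag count (vertical axis, log scale) against peak length in bp (horizontal axis, log scale) for the 334 peaks of the chromosome 11 arms. Each point is 1 peak, circles are ARID3B and triangles KDM4C, blue is control and orange edited cells, and filled points are the CCND1 region. The filled points lie at 456 to 3204 bp and 36 to 327 tags, at the upper right of the cloud. The 4 open points that stand well above the cloud, with 45 to 61 tags, are the peaks between 85194971 and 85195372.

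The CCND1 region was also dense in peaks. It held 4.67 peaks per Mb in ARID3B control (1.88 to 9.62), 9.33 in ARID3B edited (5.10 to 15.7), 2.00 in KDM4C control (0.412 to 5.84) and 3.33 in KDM4C edited (1.08 to 7.78). The remainder of 11q held 0.658, 0.947, 0.247 and 0.357 peaks per Mb. Edited cells had 14 ARID3B peaks where control cells had 7, a ratio of 2.00 with an interval of 0.755 to 5.86. For KDM4C they had 5 against 3, a ratio of 1.67 (0.324 to 10.7). Neither ratio is separable from 1, nor from the ratio of the remainder of 11q (ratio of the ratios 1.39, 0.481 to 4.38, for ARID3B and 1.15, 0.194 to 8.35, for KDM4C).

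The 29 peaks of the CCND1 region fell into 19 separate regions. Of these, 14 came from a single library, 1 from 2 libraries, 3 from 3 and 1 from all 4. Regions of a single library made up 73.7% here, 88.1% over the whole genome and 94.5% on the arms of the other autosomes. Shares of regions called in all 4 libraries are read against 4.62% over the whole genome and 1.67% on the arms of the other autosomes. The region in all 4 libraries ran from 69774697 to 69778086 on chromosome 11, joined by a chain of overlaps. Its KDM4C control peak ended at 69775729, before its ARID3B edited peak started at 69776045, so no base lay in all 4 peaks. The peaks of this region held 142, 157, 60 and 99 tags at fold enrichments of 4.41, 4.41, 4.69 and 4.03. Their local backgrounds were 3.79, 5.20, 3.40 and 4.78. The ARID3B and KDM4C peaks of edited cells here stood on a higher background than those of control cells, while the 4 fold enrichments lay close together.

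Regions called in 3 libraries were spread over the CCND1 region. The one at 69139757 to 69142070 held 155 tags in ARID3B control, 121 in ARID3B edited and 49 in KDM4C control, at folds of 4.22, 4.89 and 4.25, and was not called in KDM4C edited. The one at 69723199 to 69724696 held 94 tags in ARID3B control, 91 in ARID3B edited and 38 in KDM4C edited, at folds of 3.89, 5.19 and 6.19. The one at 70217324 to 70217879 was absent from the ARID3B edited list and held 69 tags in ARID3B control, 40 in KDM4C control and 36 in KDM4C edited, at folds of 6.13, 4.43 and 4.46. The region at 69163105 to 69163959 was called in edited cells alone, with 65 tags for ARID3B and 49 for KDM4C, at nearly the same background of 5.47 and 5.43 and fold of 3.59 and 3.65. No region of the interval was thus called in both lists of one antibody and in neither list of the other.

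The 14 regions of a single library were 3 in ARID3B control, 10 in ARID3B edited and 1 in KDM4C edited. Those of ARID3B control lay at 69142383 to 69143438, 69857822 to 69859088 and 70035523 to 70037570, with 87, 144 and 184 tags and folds of 3.76, 2.91 and 3.86. The longest and richest peak of the interval was in ARID3B edited, at 69044707 to 69047910, with 327 tags over 3204 bp, a background of 9.54 and a fold of 2.92. The other 9 of ARID3B edited held 46 to 161 tags at folds of 2.84 to 5.36. They included 69351887 to 69352437 (50 tags), 69389589 to 69391495 (161 tags) and 69401687 to 69402648 (70 tags). The single KDM4C edited peak, at 69675198 to 69677581, held 127 tags at a fold of 2.92 and scored 50.2, next to the threshold. A score under 60 was found in 1 of 7, 6 of 14, 2 of 3 and 2 of 5 peaks of the interval.

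A second stretch of raised background lay on 11p, between 28 and 36 Mb, and differed between control and edited cells. This stretch was chosen after the window counts had been seen, so its values are a description. Its ARID3B control peaks numbered 49, at a median background of 2.33 (1.0 to 3.88), and its ARID3B edited peaks numbered 24, at a median of 1.44 (1.0 to 2.20). The KDM4C libraries had 6 control peaks at a median of 2.36 (1.08 to 2.90) and 5 edited peaks at a median of 1.05 (1.0 to 1.87). A background of at least 2 was met by 28 of 49 and 5 of 24 ARID3B peaks, and by 4 of 6 and 0 of 5 KDM4C peaks. Both antibodies thus had their higher values in control cells, in ranges that overlap.

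The ARID3B background of the stretch climbed toward the centromere and then dropped. By successive 2 Mb windows from 28 Mb, the control medians were 1.39 (8 peaks), 1.62 (10 peaks), 2.46 (18 peaks) and 2.89 (13 peaks). The edited medians were 1.0 (2 peaks), 1.03 (7 peaks), 1.51 (8 peaks) and 1.58 (7 peaks), lower in each of the 4 windows. Between 36 and 48.6 Mb the medians were 1.01 in ARID3B control (7 peaks), 1.02 in ARID3B edited (8 peaks), 1.19 at the single KDM4C control peak and 1.0 at the 2 KDM4C edited peaks. Before the stretch, from 3 to 28 Mb, they were 1.01, 1.01, 1.0 and 1.06. On the arms of the other autosomes a background of at least 2 was met by 7.16% of the ARID3B control peaks and 8.07% of the ARID3B edited peaks. In the CCND1 region the order was not the same, with 5.13 in control and 5.33 in edited cells.

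**Figure D3:**
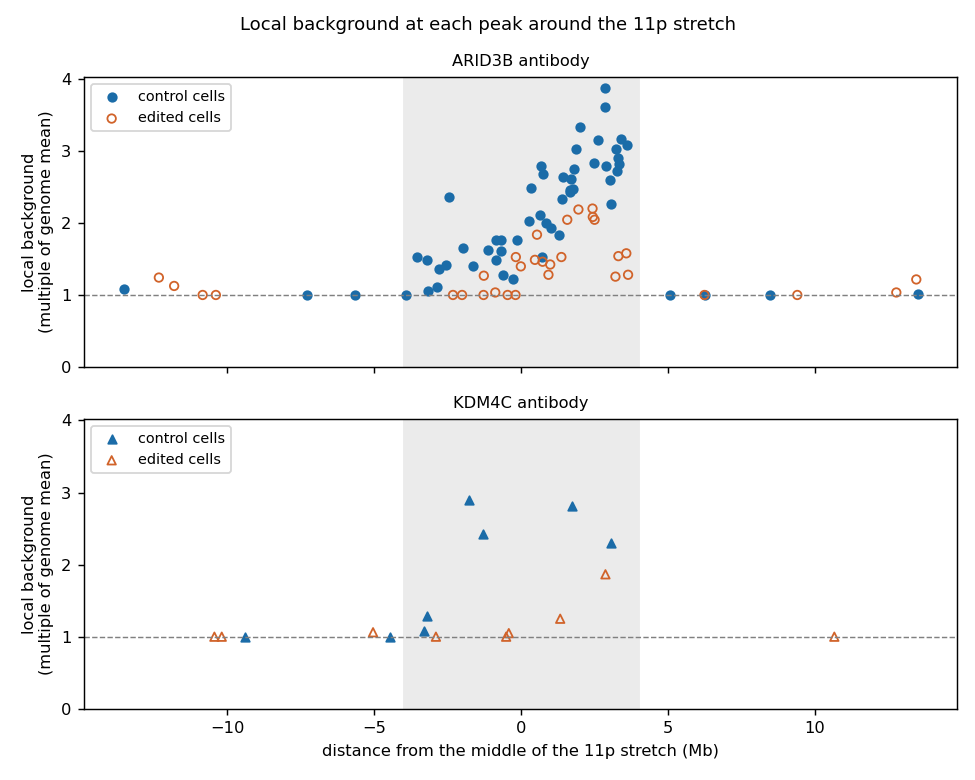
Local background of each peak (vertical axis, multiple of the genome mean) against the distance of its middle from the middle of the 11p stretch (horizontal axis, Mb), for ARID3B above and KDM4C below. Each point is 1 peak, filled for control and open for edited cells, the shaded band is the stretch and the dashed line is the genome mean. Control ARID3B points climb to 3.88 toward the right of the band, edited ones reach 2.20, and points outside the band lie near 1.

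ARID3B peaks of the stretch were fewer in edited cells, with 24 against 49 in control cells, a ratio of 0.490 (0.287 to 0.814). The remainder of 11p held 21 peaks in each ARID3B list, a ratio of 1.0 (0.520 to 1.92). The ratio of the stretch over that of the remainder was 0.493, with an interval of 0.210 to 1.15, so the 2 segments are not separable by their counts. KDM4C went from 6 to 5 peaks in the stretch and from 9 to 9 in the remainder. The peaks of the stretch were also shorter in edited cells, with a median of 279 against 445 bp for ARID3B and 246 against 462.5 bp for KDM4C. Their median tag count was 13 against 27 and 10 against 23.5. With no input library and 1 library per group, the antibody's share of this tag density cannot be told apart from that of the cells or the library.

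Between the limits of the arms, ARID3B peaks were fewer in edited cells on 11p and more numerous on 11q. On 11p there were 70 control and 45 edited peaks, a ratio of edited over control of 0.643 (0.432 to 0.948). On 11q there were 55 and 83, a ratio of 1.51 (1.06 to 2.16). The 11q ratio was 2.34 times that of 11p, with an interval of 1.37 to 4.02. The arms of the other autosomes had 2128 and 3300 peaks, a ratio of 1.55 (1.47 to 1.64). Against these, the 11q ratio was 0.973 times as large (0.681 to 1.4) and the 11p ratio 0.415 times (0.277 to 0.614), so the arm that stood apart was 11p. Without the 28 to 36 Mb stretch, the 11p ratio was 0.645 times that of the other arms (0.334 to 1.24), which is not separable from 1. As the stretch was chosen after the window counts were seen, this value cannot show that the stretch accounts for the arm's difference. Counted per 1000000 filtered tags, the 11p ratio was 0.753 with an interval of 0.506 to 1.11, which spans 1. The other arms had 1.82 when counted in this way, above that interval. With the arms taken whole, out to the chromosome ends and the centromere, it was 0.779 (0.575 to 1.05), which also spans 1.

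KDM4C peaks were fewer and their ratios wider. On 11p there were 15 control and 14 edited peaks, a ratio of 0.933 (0.417 to 2.07), and on 11q 21 and 31, a ratio of 1.48 (0.822 to 2.70). The 11q ratio was 1.57 times that of 11p (0.574 to 4.36). The arms of the other autosomes had 712 and 1108 KDM4C peaks, a ratio of 1.56 (1.42 to 1.71), and the 11p ratio was 0.60 times this (0.267 to 1.34). On 11p the ARID3B ratio was 0.691 times the KDM4C ratio, with an interval of 0.280 to 1.71, so a difference between the antibodies was not detectable at these counts. The 2 antibodies' ratios on 11q were closer still (1.02 times, 0.503 to 2.05).

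The ARID3B ratios were also taken by peak score, and the difference between score classes was not tested. Among peaks that scored at least 60, ARID3B went from 24 to 10 on 11p, a ratio of 0.417 (0.178 to 0.904), and from 32 to 32 on 11q, a ratio of 1.0 (0.593 to 1.69). The arms of the other autosomes had a ratio of 1.47 (1.33 to 1.62) at that score. ARID3B peaks of 11q that scored under 60 went from 23 to 51, a ratio of 2.22 (1.33 to 3.80), where the other arms had 1.59 (1.49 to 1.70). On 11p those under 60 went from 46 to 35, a ratio of 0.761 (0.476 to 1.21). In both score classes the 11q interval holds the ratio of the other arms, and the 11p interval lies below it.

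In density, the ARID3B control library had fewer peaks per Mb on 11q than on 11p, at 0.739 against 1.54, a ratio of 0.482 (0.332 to 0.695). The other libraries had ratios of 1.13 (0.777 to 1.66, ARID3B edited), 0.858 (0.422 to 1.79, KDM4C control) and 1.36 (0.701 to 2.76, KDM4C edited), all spanning 1. Without the stretch, as an alternative added once the data had been seen, the control ratio turned to 1.32 (0.788 to 2.30).

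**Figure D4:**
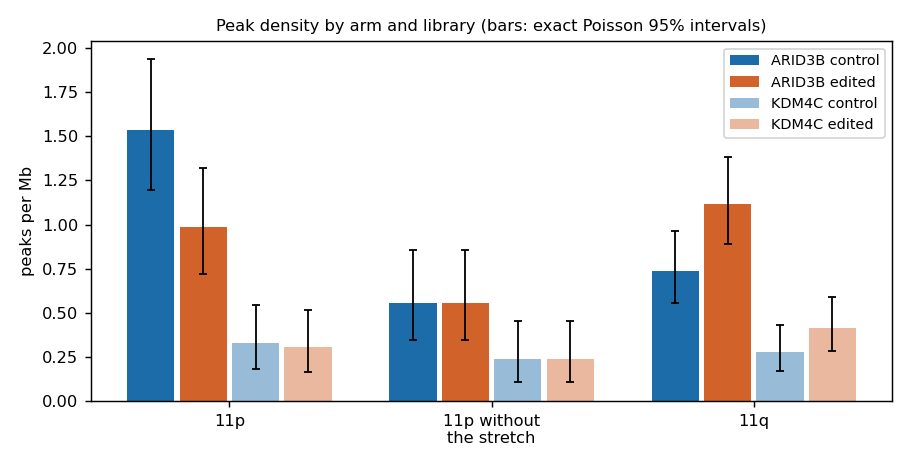
Peaks per Mb (vertical axis) on 11p, on 11p without the 28 to 36 Mb stretch, and on 11q, for the 4 libraries. Bars are the counts over the length of each segment and error bars are exact Poisson 95% intervals, with 1 library per bar. ARID3B control stands at 1.54 on 11p and at 0.559 without the stretch, where ARID3B edited has the same 0.559.

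No control peak of 11p was called again in edited cells. With the ARID3B antibody this held for 0 of 70 peaks (interval 0 to 5.13%) and with KDM4C for 0 of 15 (0 to 21.8%). Over the whole lists 25.2% of ARID3B and 36.7% of KDM4C control peaks were called again, by an overlap of at least 1 bp. On the arms of the other autosomes these shares were 12.9% (274 of 2128, 11.5 to 14.4) and 17.4% (124 of 712, 14.7 to 20.4). Weighting those arms to the scores of the 11p peaks gave 9.45% for ARID3B, above the upper bound on 11p, and 12.6% for KDM4C, which lies within its interval. The stretch gave 0 of 49 and the remainder of 11p 0 of 21 ARID3B peaks, with upper bounds of 7.25% and 16.1%. Weighted in the same way, the other arms gave 10.4% and 7.18% for these 2 segments. In the other direction, 0 of 45 edited ARID3B peaks of 11p (0 to 7.87%) had a control peak. For KDM4C it was 0 of 14 (0 to 23.2%). Over the lists these shares were 17.3% and 27.7%, and on the other arms 8.45% and 10.9%. At the same scores the other arms gave 4.62% and 6.17%, and both 11p intervals hold these.

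On 11q, 12 of 55 ARID3B control peaks were called again, or 21.8% (11.8 to 35), close to the 20.5% of the other arms at the same scores. For KDM4C it was 6 of 21, or 28.6% (11.3 to 52.2), where the other arms gave 13.3%. The CCND1 region contributed 3 of 7 ARID3B and 2 of 3 KDM4C control peaks to these, or 42.9% (9.90 to 81.6) and 66.7% (9.43 to 99.2). The other arms gave 36.7% and 12.6% at the same scores, and both intervals hold these shares. From the edited side, 12 of 83 ARID3B peaks of 11q had a control peak (14.5%, 7.70 to 23.9). The share was 17.3% over the list, 8.45% on the other arms and 11.9% on those arms at the same scores. For KDM4C it was 5 of 31 peaks (16.1%, 5.45 to 33.7), against 27.7% over the list, 10.9% on the other arms and 11.2% at the same scores. Both intervals hold the share of the other arms at the same scores.

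**Figure D5:**
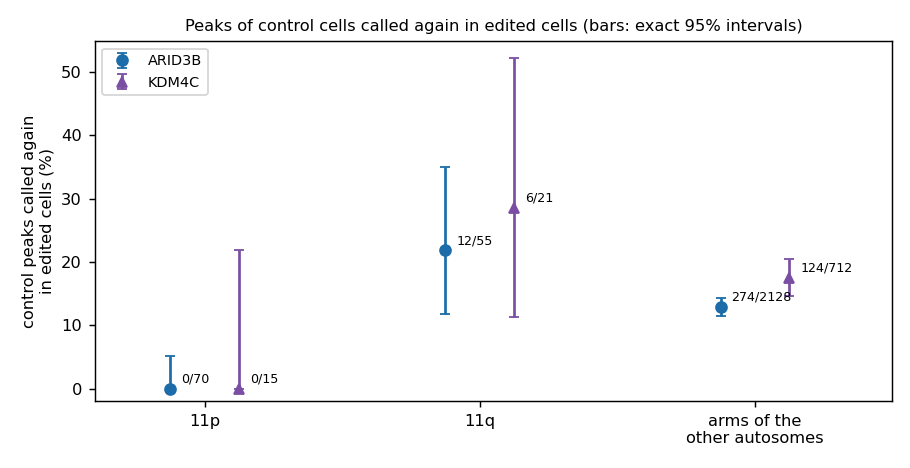
Share of control peaks called again in edited cells (vertical axis, percent) on 11p, 11q and the arms of the other autosomes. Points are ARID3B (circles) and KDM4C (triangles), error bars are exact 95% intervals, and the numbers beside them are peaks called again over peaks. Both antibodies are at 0 on 11p, and on 11q they are at 21.8% and 28.6%.

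The overlap of the antibodies was counted first over the KDM4C peaks. In control cells 1 of 15 KDM4C peaks of 11p (6.67%, 0.169 to 31.9) and 9 of 21 of 11q (42.9%, 21.8 to 66) overlapped an ARID3B peak, against 39.3% over the list and 19.4% on the other arms. At the scores of the 11q peaks the other arms gave 15.4%, below the 11q interval. In edited cells it was 0 of 14 on 11p (0 to 23.2%) and 8 of 31 on 11q (25.8%, 11.9 to 44.6), against 35.2% over the list and 16.9% on the other arms. This 11q interval holds the 17.2% of the other arms at the same scores. The 11p intervals hold the shares of the other arms at the scores of the 11p peaks, 15% in control and 12.7% in edited cells. The difference between the arms was not tested. All 3 KDM4C peaks of the CCND1 region in control cells and 3 of its 5 in edited cells overlapped an ARID3B peak. Without that region, the control share of 11q was 6 of 18 (33.3%, 13.3 to 59.0), whose interval holds the 15.5% of the other arms. Counted over the ARID3B peaks of 11q, 9 of 55 in control cells overlapped a KDM4C peak (16.4%, 7.77 to 28.8). In edited cells 9 of 83 did (10.8%, 5.08 to 19.6). The lists gave 17.8% and 14.3%. Both intervals hold the 11.7% and 8.86% of the other arms at the same scores.

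Merging the 4 lists gave 142 regions on 11p and 158 on 11q. On 11p, 140 came from a single library, 2 from 2 and none from 3 or 4, so at most 2.56% were in all 4. The 2 shared ones each joined the 2 antibodies and not control with edited cells of 1 antibody. The region at 11268389 to 11268770 held 19 ARID3B and 10 KDM4C tags in control cells, at folds of 11 and 12.1. The one at 34869290 to 34870044, in the stretch, held 51 tags in ARID3B control and 16 in KDM4C edited, over backgrounds of 3.88 and 1.87. On 11q, 143 came from a single library, 4 from 2, 8 from 3 and 3 from all 4 (1.90%, 0.393 to 5.45), a share near the 1.67% of the other arms.

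The region with the highest fold enrichment of both arms was called in all 4 libraries, at 85194971 to 85195372 on 11q. Its folds were 30.9, 38.1, 34.8 and 27.4, from 50, 61, 55 and 45 tags, over backgrounds of 1.58, 1.72, 1.74 and 2.05. Its summit height, the tags stacked at the summit per 1000000 filtered tags, was 1.55, 1.92, 1.84 and 1.97. It was sharp and tall, unlike the peaks of the CCND1 region, and its background was lower than theirs. With its own tags and length removed, the background was 1.05, 0.968, 1.04 and 1.35. Both antibodies gave this region in both kinds of cells.

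The remaining region of all 4 libraries ran from 93970571 to 93972167. Its highest folds were 4.86, 8.82, 4.99 and 8.40, higher in the edited list of either antibody, over highest backgrounds of 3.76, 3.16, 3.62 and 3.96. It lay beside a region of both ARID3B lists at 93969025 to 93970008 (62 and 28 tags) and was followed by one of 3 libraries at 93983364 to 93983764 (22 tags in ARID3B control, 11 in KDM4C control and 11 in KDM4C edited). Of the other regions of 3 libraries on 11q outside the CCND1 region, 3 had a low background and higher folds. The one at 77597364 to 77597743 had folds of 12.9 (ARID3B control), 19.8 (ARID3B edited) and 18.9 (KDM4C control), and the one at 71912593 to 71912947 had 15.4 (ARID3B control), 18 (ARID3B edited) and 13.7 (KDM4C edited). The one at 131550235 to 131550719 went from 8.09 to 16.3 between the ARID3B lists, with 25 and 23 tags, and had 11 in KDM4C edited. The one at 64408015 to 64409778 differed from these, with folds of 4.13, 4.89 and 4.11 in ARID3B control, ARID3B edited and KDM4C control. It had 148, 34 and 46 tags over backgrounds of 4.66, 3.01 and 3.49.

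Peaks called in 1 library only within an antibody are named by their fold enrichment, 2 per arm and list. On 11p the control ARID3B peaks with the highest fold were at 45848199 to 45848319 (10 tags, fold 12.9, background not recovered) and 40459577 to 40459793 (11 tags, 11.6). In edited cells they were at 29678199 to 29678479 (12 tags, 13.1) and 29986932 to 29987178 (10 tags, 13.1). On 11q the control ones were at 71493919 to 71494168 and 96800994 to 96801334, with 12 and 13 tags and a fold of 11.6 each. The edited ones were at 59651872 to 59652090 (16 tags, 17.3) and 82111871 to 82112023 (10 tags, 15.8), and the latter was also called with KDM4C in edited cells (11 tags, 16.2). The KDM4C counterparts on 11p were at 28702566 to 28702743 (10 tags, 13.2) and 27528080 to 27528319 (11 tags, 12.7) in control cells, and at 26962408 to 26962586 (9 tags, 15.8) and 12697910 to 12698161 (10 tags, 14) in edited cells. On 11q, KDM4C control cells had 131697219 to 131697482 (11 tags, 14.3). These peaks had 9 to 16 tags, near the smallest that were called. A high fold goes with a low background here, so they do not stand for all peaks of a single list, which held up to 63 tags on 11p and up to 327 in the CCND1 region.

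The arms were also cut into 60 windows of 2 Mb, 23 on 11p and 37 on 11q. With ARID3B, 4 of the 55 windows that held a peak had a ratio whose interval left out that of the whole list. This was 7.27% (2.02 to 17.6), against 2.04% of windows over the genome, a share that the interval holds. All 4 were below the ratio of the whole list, against 0.984% below over the genome. They ran from 28 to 30 Mb (8 control and 2 edited peaks), 32 to 34 Mb (18 and 8), 34 to 36 Mb (13 and 7) and 66 to 68 Mb (8 and 1). The first 3 lie in the 11p stretch, which had been chosen after the window counts were seen, so this is not a separate result. The last lies in the segment of raised background before the CCND1 region. The interval treats windows as independent, although those from 32 to 34 Mb and 34 to 36 Mb are neighbours. With KDM4C, 0 of 41 windows did so, against 0.308% over the genome in either direction and 0.205% below. Shifted by 1 Mb, 1 ARID3B window was left (33 to 35 Mb, 16 and 6 peaks), so the count depends on where windows start.

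Windows of at least 3 peaks with a median background of at least 3 made up 6.15%, 5.25%, 23.2% and 18.8% of such windows in the genome. The window from 68 to 70 Mb was one of them in ARID3B control (4.30, rank 18 of 423), ARID3B edited (5.20, rank 18 of 628) and KDM4C edited (5.11, rank 16 of 181). The window from 70 to 72 Mb was one in ARID3B edited (4.58, rank 22 of 628), and that from 92 to 94 Mb in ARID3B control (3.70), ARID3B edited (3.16) and KDM4C control (3.51). The window from 64 to 66 Mb was one in KDM4C control (3.49). None was on 11p, where the highest median was 2.89 (34 to 36 Mb, ARID3B control). Few windows of 11p held at least 3 peaks, so this absence is not read as a result. The densest windows were 32 to 34 Mb (18 peaks) and 34 to 36 Mb (13) in ARID3B control, 58 to 60 Mb and 68 to 70 Mb (9 each) in ARID3B edited, 4 to 6 Mb and 64 to 66 Mb (3 each) in KDM4C control, and 68 to 70 Mb and 92 to 94 Mb (4 each) in KDM4C edited. The 58 to 60 Mb window had a median background near the genome mean in ARID3B edited (1.03, 9 peaks, 1.0 to 1.51).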

How the data were processed

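Peaks had been called by the authors with MACS 1.4.2 in each library without an input library, at p of 1e-05, with a genome of 2.7 Gb and a 10 kb background window, per the file headers. The submitters' processing notes name BWA 0.7.12, bcl2fastq 2.1.5 and GRCh37. The deposited tag count is a whole number per peak, not normalized. The deposited score is 10 times the negative log10 of the p-value. Fold enrichment, as deposited, is a ratio of summit height to local background.

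Groups came from the sample titles. The local background is the Poisson mean at which a peak's tag count has the p-value of its score. It was not recovered for 1.01% to 1.54% of a library's peaks, which were left out of background values. Recovered summit heights were whole within 0.05 for 91.5% to 96.4% of peaks. Arms of the 21 other autosomes were taken 3 Mb inside the chromosome start, the last peak and the centromere gap. These gaps were entered in whole Mb from general knowledge, and 0 peaks lay more than 1 Mb inside them. Ratios have exact conditional binomial intervals, shares Clopper-Pearson intervals, and ratios of ratios Fisher's conditional intervals, all 95%. Peaks overlapped by at least 1 bp. No p-value was computed, since peaks are not replicates. Depth limits precision: 9 or 10 tags make a peak.

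Named peaks were all those of the CCND1 region with their neighbours, the leading regions of all 4 libraries, the 2 highest-fold peaks of 1 list per arm and antibody, the 2 densest windows per library and the windows that stood apart. The members, lists and rules were chosen with earlier results of these data known. Scores of at least 60 or 100, overlap rules, window sizes, whole arms and other alternatives were tried. The calculations used Python 3.11.15, NumPy 2.4.6, pandas 2.3.3, SciPy 1.17.1 and matplotlib 3.10.9 and were tested on simulated data.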

Additional observations from a re-analysis of the deposited data

Results flagged for a closer look

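Peaks of chromosome 11 between the limits of the arms, from 48.6 to 57.6 Mb around the centromere, were left out of the arms, and above they count only within the values over whole lists, the whole genome or arms taken whole. There were 33 in ARID3B control, 37 in ARID3B edited, 29 in KDM4C control and 23 in KDM4C edited. They drew a closer look because each list held more than a few peaks there, outside the arms.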

How the results depend on the processing

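Of 92 alternative values of 20 results, 62 were counted as the same. For ratios whose interval left out 1, this means the same direction with 1 still left out. For other ratios, shares and backgrounds it means a value inside the main interval or range, and for windows an unchanged count. A direction could thus change, as for the KDM4C ratio of 11p (0.933, and 1.19 per 1000000 filtered tags). The 11p ARID3B ratio (0.643) no longer left out 1 in whole arms (0.779), per 1000000 filtered tags (0.753) or without the 28 to 36 Mb stretch (1.0). The 11q ARID3B ratio (1.51) did not at scores of at least 60 (1.0) or 100 (1.0) or without the CCND1 region (1.44), and the KDM4C one (1.48) did per 1000000 filtered tags (1.88). The ARID3B ratio of 11q over 11p (2.34) spanned 1 at scores of at least 60 (2.38) and without the stretch (1.51). The density of 11q over 11p in ARID3B control went to 0.817 at scores of at least 60 and reversed to 1.32 without the stretch. In ARID3B edited it went to 1.96 and 2.00, and in whole arms KDM4C had 0.395 (control) and 0.671 (edited). In whole arms, control peaks called again rose to 21.4% (ARID3B) and 34.8% (KDM4C), and edited KDM4C peaks with an ARID3B peak to 36.6%. In these alternatives the score limit was set on both lists of an overlap. At scores of at least 100, the shares rested on 1 to 6 peaks and were 66.7% (ARID3B called again), 100% (KDM4C called again) and 100% (KDM4C with ARID3B, control and edited). The last was 38.5% at scores of at least 60. Against the whole edited list, 83.3% of the ARID3B control peaks that scored at least 100 were called again. ARID3B windows that stood apart numbered 1 at scores of at least 60, 0 at 100, 1 when shifted and 2 at 5 Mb, against 4. The background of the CCND1 region over that of the other arm peaks went from 3.41 to 1.20 (ARID3B control) and from 5.09 to 2.84 (ARID3B edited) at scores of at least 100, with 2 peaks inside and 4 outside, and from 2.86 to 2.52 in whole arms (KDM4C control). The cause of these changes was not tested. Leaving out the stretch or the CCND1 region was chosen after seeing the data.

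At scores of at least 100, 11p had no peak, so its ratios and the density could not be had, and the KDM4C background had no peak in the region. No paired analysis was possible because each group had 1 library and the labels gave no replicate numbers.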
